A study of Mus musculus with 2 samples.

Results

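Mir191 and Mir425 are microRNA genes that lie side by side at the Dalrd3 locus on mouse chromosome 9. They were measured in 2 rows of a table of 1973 microRNA genes, chosen by their Ensembl identifiers and not by their values. Mir425 has a row of its own (ENSMUSG00000065579.1). Mir191 has none. Its reads stand in the row of Gm24083 (ENSMUSG00000092915.1), a microRNA gene annotated over the same bases on the other strand. They are in the column taken to count reads of the opposite strand. The samples were lungs of newborn B6NCrl mice, a C57BL/6N substrain, with no genetic change or treatment named in the labels. They form 1 group of 2 libraries at an age of 0 days after birth, replicate 2 from pup 3 and replicate 1 from pup 1 of pregnancy 1, each made from 2 lungs. Both libraries carry the same donor record, and sex was not collected. Nothing else was compared in the study, so the results are levels in the newborn lung, ratios between microRNAs within a library, and differences between the libraries.

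A microRNA is cut from a hairpin in a longer primary transcript, first by Drosha in the nucleus and then by Dicer in the cytoplasm. The resulting short strands, called the 5p and 3p arms, can each enter an Argonaute protein, where bases 2 to 8, the seed, pair with target messenger RNAs. The microRNAs miR-191 and miR-425 are conserved in mammals and are read from a common primary transcript. Both are found in many tissues, and miR-191 is often used as a reference when other microRNAs are measured by PCR.

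The mature sequences are shown because they tell what a read on each row can be, and because their seeds decide whether they form a family. They are from RefSeq on GRCm38.p6, written 5′ to 3′ with the seed in capitals.
mmu-miR-191-5p: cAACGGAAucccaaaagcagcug
mmu-miR-191-3p: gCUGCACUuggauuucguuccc
mmu-miR-425-5p: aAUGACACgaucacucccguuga
mmu-miR-425-3p: aUCGGGAAugucguguccgcc
mmu-miR-489-3p: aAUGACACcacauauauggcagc
No seed is shared between the arms of Mir191 and those of Mir425, and their hairpins have no run of more than 5 bases in common. Among all mature mouse sequences of this table, the seeds of both Mir191 arms and of miR-425-3p each occur in 1 sequence. The seed AUGACAC of miR-425-5p occurs in 2, the other being miR-489-3p, encoded on chromosome 6. Mir489 had 0 reads in replicate 2 and 1 read in replicate 1, so nearly all reads of genes with this seed were those of Mir425.

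The hairpins and the Gm24083 transcript are shown next because the Mir191 level rests on how they overlap. In the hairpins, capitals mark the 5p and 3p arms. In Gm24083, taken from GENCODE M21 on GRCm38, capitals mark the bases that are the reverse complement of the Mir191 hairpin.
Mir191 hairpin, chr9:108568319-108568392, plus strand: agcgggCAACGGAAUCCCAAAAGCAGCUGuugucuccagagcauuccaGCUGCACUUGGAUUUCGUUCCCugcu
Mir425 hairpin, chr9:108568777-108568861, plus strand: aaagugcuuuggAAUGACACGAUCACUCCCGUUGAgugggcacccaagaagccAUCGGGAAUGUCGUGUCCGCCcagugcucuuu
Gm24083 transcript, chr9:108568295-108568414, minus strand: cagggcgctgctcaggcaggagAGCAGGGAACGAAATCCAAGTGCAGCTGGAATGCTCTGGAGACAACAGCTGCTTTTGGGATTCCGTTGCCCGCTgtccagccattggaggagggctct
The 120 bases of Gm24083 hold the whole Mir191 hairpin of 74 bases, with 24 bases before it and 22 after it on the plus strand. Both hairpins were predicted by RNAfold to form 28 base pairs, with minimum free energies of -35.0 kcal/mol for Mir191 and -31.7 kcal/mol for Mir425. The Gm24083 transcript, which is longer, was predicted to fold as well, with 42 base pairs and -58.6 kcal/mol. The GC content was 54.1% in either hairpin.

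The hairpins lie 384 bases apart on the same strand. In GENCODE M21 neither overlaps Dalrd3, whose first annotated base lies 1024 bases beyond the end of Mir425. RefSeq begins Dalrd3 at base 108567484 and ends it at base 108572773, which puts both hairpins inside the gene. GENCODE places 4833445I07Rik, a long intergenic noncoding RNA, over both hairpins on their strand. They lie in the single exon of its transcript 201, and Mir191 lies in the intron of its transcript 202, which ends before Mir425. Within 100 kb the tables hold 1 further row, Gm26298, with 0 reads on either strand in both libraries.

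**Figure D1:**
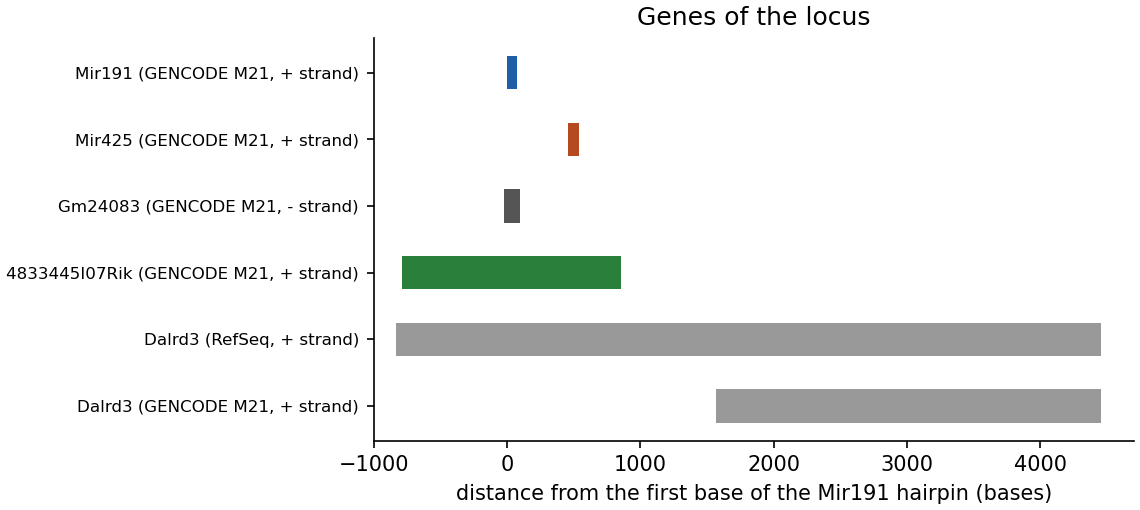
Genes of the locus by distance in bases from the first base of the Mir191 hairpin, with the annotation and strand of each bar named at the left. Mir191 and Mir425 lie 384 bases apart inside 4833445I07Rik and inside Dalrd3 as RefSeq draws it, and before Dalrd3 as GENCODE M21 draws it.

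The libraries held 5426081 reads on the own strand of microRNA genes in replicate 2 and 4532902 in replicate 1. Levels are given as reads per 1000000 of these totals, abbreviated CPM. Levels of microRNAs known from cells of the lung were looked up. Endothelial Mir126a stood at 160649 ± 12.4 CPM, Mir143 of smooth muscle and mesenchyme at 67837 ± 3158 CPM, epithelial Mir200c at 9839 ± 2.14 CPM and Mir449a of multiciliated cells at 17777 ± 591 CPM (SD, n = 2). Other listed markers of these cells stood lower, with Mir145a at 1554 CPM, Mir200a at 1123 CPM, Mir141 at 1684 CPM, Mir200b at 6368 CPM and Mir34c at 4218 CPM. The exception was epithelial Mir429, at 11543 CPM. Leukocyte Mir223 stood at 1307 CPM and Mir155 at 52.1 CPM. Liver Mir122 stood at 49.5 ± 5.08 CPM. The listed heart and skeletal muscle markers were Mir208b at 299 ± 6.33 CPM, Mir208a at 114 CPM and Mir206 at 13.0 CPM. Of these, only Mir208b lay above the median of 139 CPM among rows with at least 10 reads in each library. Of the 18 genes tested of this marker list, 7 were higher in replicate 2, 5 were lower and 6 did not pass in a two-sided exact binomial test of the split of reads, in which 20.2% of all 392 rows and strands tested were higher and 22.4% lower. Epithelial genes went both ways, with Mir429 at a log2 ratio of 0.096 and Mir200b at -0.21. That the libraries are separate samples rests on the labels. The tests between them set a difference against counting error alone and estimate no spread between animals.

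With the count columns taken as own and opposite strand, reads at both rows came from the plus strand, the strand of the microRNAs. The columns carry no strand names. The Gm24083 reads were part of the reason for taking them so, and for that row this is no independent check. The Gm24083 row held 14481 opposite-strand reads in replicate 2 and 12015 in replicate 1, and 0 reads on its own strand in either. The Mir425 row held 5527 own-strand reads in replicate 2 and 6498 in replicate 1, and 0 reads on the opposite strand in either. The libraries hold RNA of under 30 bases, so the whole Gm24083 transcript of 120 bases could not be seen in them. For short products, a count of 0 allows up to 3 reads, or 0.553 CPM in replicate 2 and 0.662 CPM in replicate 1. At this depth none from the annotated Gm24083 strand was detectable. These limits and the intervals and p-values below speak of counting error alone, and PCR copies of 1 molecule are counted as several reads, so they are too narrow by an amount not measured here. Neither hairpin holds a run of 20 bases found in any other microRNA gene of GENCODE M21, on either strand, leaving Gm24083 aside. Reads are counted per row, so the arms of a hairpin cannot be told apart, nor can a read of the hairpin be told from one of the flanking bases that Gm24083 adds.

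**Figure D2:**
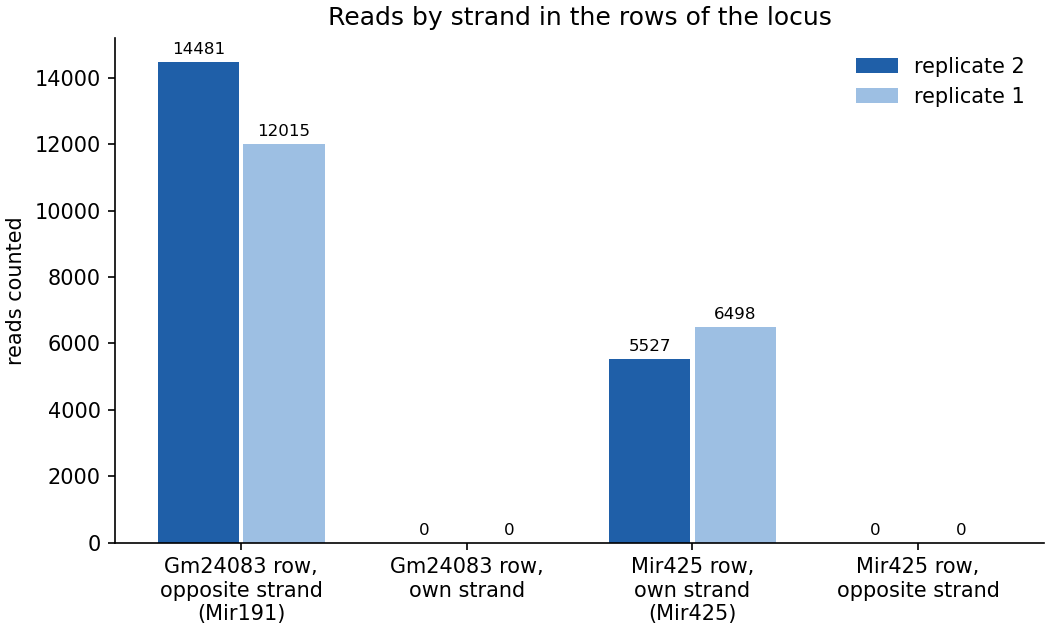
Reads counted in the rows of Gm24083 and Mir425 by strand, with a dark bar for replicate 2 and a light bar for replicate 1, on a linear axis from 0. All reads of the Gm24083 row lie opposite to its annotated strand, where Mir191 is, and all reads of the Mir425 row lie on its own strand.

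The same strand arrangement was seen at other microRNA loci. In 10 rows, opposite-strand reads numbered at least 10 in each library and at least 10 times those of the own strand, and GENCODE M21 places a microRNA without a row of its own on that strand in all 10. Together they took 99.7% of the opposite-strand reads in each library. Gm24083 was the 4th highest of them and took 13.4% of these reads in replicate 2 and 14.4% in replicate 1. Those with more reads were Mir497b, over Mir497, at 3155 ± 160 CPM, Gm25301, over Mir378a, at 3040 ± 329 CPM, and Gm25927, over Mirlet7e, at 2952 ± 210 CPM (SD, n = 2). Next below came Gm25252, over Mir376a, at 1934 ± 111 CPM, and Mir142b, over Mir142, at 1666 ± 159 CPM. A count of own-strand reads alone would give 0 for Mir191 and for 7 of the others.

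Mir191 was the more abundant microRNA of the locus. Its level was 2669 CPM in replicate 2, against 2651 CPM in replicate 1, with a mean of 2660 ± 12.8 CPM (SD, n = 2). The exact Clopper-Pearson 95% intervals, 2626 to 2713 CPM in replicate 2 and 2604 to 2698 CPM in replicate 1, overlapped over most of their width. They set opposite-strand reads against the own-strand total, which does not include those reads. Mir425 stood at 1019 CPM in replicate 2, with an interval of 992 to 1046 CPM, and at 1434 CPM in replicate 1, with an interval of 1399 to 1469 CPM. Its mean was 1226 ± 293 CPM (SD, n = 2), and its intervals lay apart. Scaled by the own-strand total, the coefficient of variation between libraries was 0.483% for Mir191 and 23.9% for Mir425. The small value for Mir191 depends on this scaling. Its log2 ratio of replicate 2 to replicate 1 was 0.0098 here. With the TMM factors of edgeR it was 0.079, and with the size factors of DESeq2 0.063. The levels are of whole short reads and are not divided by length, since the mature arms of both genes are 21 to 23 bases long. How efficiently each sequence enters a library was not measured here. In whole lung, fewer cells that make a microRNA and less of it per cell cannot be told apart.

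Ranked by mean level with the Gm24083 row read by its opposite strand and all others by their own, Mir191 was the 46th and Mir425 the 76th of the 1973 rows. With each row read by its larger strand they were the 49th and the 83rd. The shares that follow leave out the 9 other microRNAs counted on the opposite strand. Of the 309 rows with at least 10 reads in each library, 14.6% lay above Mir191 and 24.3% above Mir425, and their median was 139 CPM. Between the neighbours of Mir191 in this order, Mir93 lay above it in both libraries, at 2806 CPM in replicate 2 and 2773 CPM in replicate 1. Mir423, the next below, was lower than Mir191 in replicate 2 at 1820 CPM but higher in replicate 1 at 3164 CPM, so their order is within the spread of the libraries. Mir423 was the 1 gene whose range over the libraries overlapped that of Mir191. For Mir425 the ranges of 21 genes overlapped its own, between the 63rd and the 85th place, so its place is loosely set. Its direct neighbours Mir203, above, and Mir200a, below, were among those not separated from it.

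**Figure D3:**
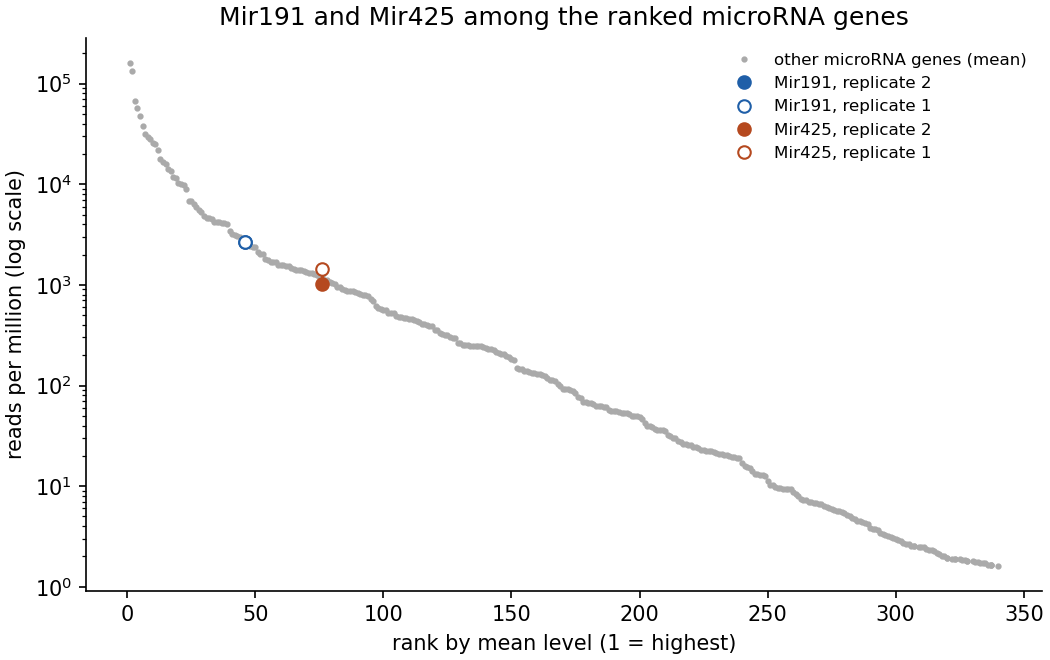
Mean level in CPM, on a log axis, against rank for the 340 highest microRNA genes (grey points), with the values of Mir191 and Mir425 in replicate 2 (filled) and replicate 1 (open) joined by a line. Mir191 at rank 46 has points that coincide at this scale, while those of Mir425 at rank 76 lie apart at 1019 and 1434 CPM.

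The genes nearest to each member over both libraries were found by Euclidean distance in log2(CPM + 1), over only 2 libraries. Rows other than Gm24083 were read by their own strand, so other microRNAs counted on the opposite strand were not searched. Among these, Mirlet7e lies close to Mir191, at 3101 CPM in replicate 2 and 2804 CPM in replicate 1. Nearest to Mir191 was Mir93, a member of the miR-17 family in an intron of Mcm7, at a distance of 0.097. Mir182, at 0.23, and Mir20a, at 0.25, followed. Nearest to Mir425 was Mir342, at 0.24, with 1090 CPM in replicate 2 and 1665 CPM in replicate 1. The epithelial Mir200a, at 0.28, and Mir181d, at 0.31, came next.

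The ratio of Mir191 to Mir425 was above 1 in both libraries and differed between them. It was 2.62 in replicate 2 and 1.85 in replicate 1, or 1.39 and 0.89 on the log2 scale, with a mean log2 ratio of 1.14 ± 0.36 (SD, n = 2). Mir191 made up 72.4% of the reads of the pair in replicate 2 (exact 95% interval 71.8% to 73.0%) and 64.9% in replicate 1 (64.2% to 65.6%). The log2 ratio was larger in replicate 2 by 0.50, with a counting interval of 0.44 to 0.57, and Fisher's exact test on the reads, two-sided and added after the values were seen, gave p = 2.44e-56. The test compares the reads of these libraries and not groups of animals. This difference does not depend on the total used for scaling, because both microRNAs are read in the same library. Summed, the pair stood at 3687 CPM in replicate 2, against 4084 CPM in replicate 1, with a mean of 3886 ± 281 CPM (SD, n = 2). No p is given for the ratio itself, as flipping the signs of 2 libraries in an exact test cannot go below 0.5.

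Ratios of other microRNAs that share a host gene are given beside it as values, with no test of how they differ between the libraries. In Smc4, Mir15b exceeded Mir16-2 by 1.34 on the log2 scale in replicate 2 and by 0.48 in replicate 1, a difference of 0.86. In Nfyc, the log2 ratio of Mir30e to Mir30c-1 was 8.93 in replicate 2 and 9.57 in replicate 1, a difference of -0.64, which rests on 137 reads of Mir30c-1 in replicate 2 and 94 in replicate 1. In Mcm7, whose intron holds Mir106b, Mir93 and Mir25, the 3 ratios differed by 0.27, 0.20 and -0.08. The difference of 0.50 for Mir191 and Mir425 lay between those of Mcm7 and those of Smc4 and Nfyc. Mir16-2, Mir30e and Mir30c-1 hold runs of 20 bases found in other microRNA genes, so some of their reads can be missing. No such run was found in Mir191, Mir425 or the Mcm7 microRNAs. The search covered microRNA genes only, so reads lost to matches elsewhere in the genome were not checked.

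**Figure D4:**
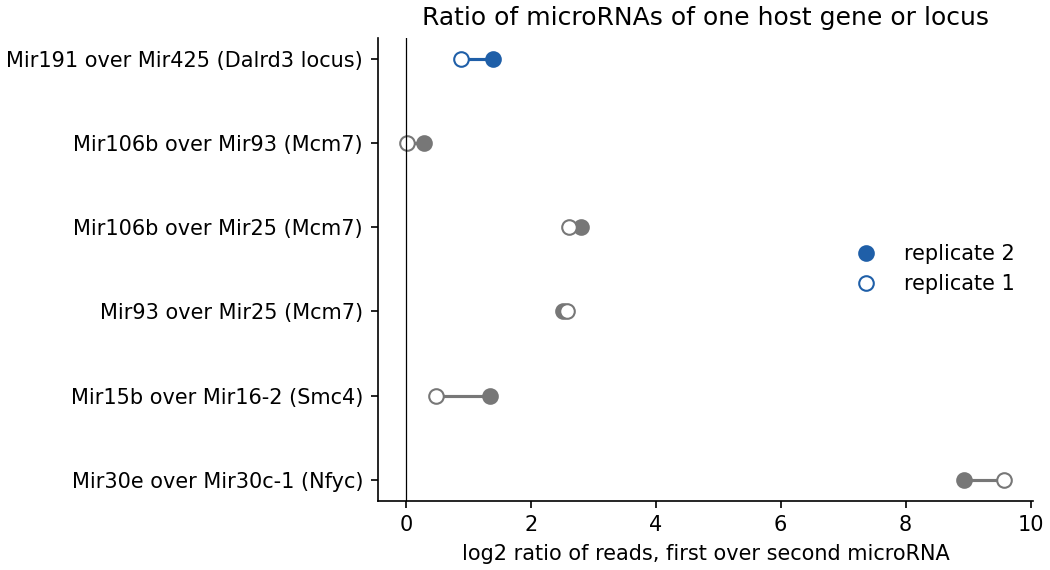
Log2 ratio of reads between microRNAs of one host gene or locus in replicate 2 (filled) and replicate 1 (open). The ratio of Mir191 to Mir425 is 1.39 in replicate 2 and 0.89 in replicate 1, a shift larger than for the 3 Mcm7 ratios and smaller than for Smc4 and Nfyc.

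Between the libraries, Mir425 was lower in replicate 2 and Mir191 was nearly equal. The log2 ratio of replicate 2 to replicate 1 was -0.49 for Mir425, a level 0.711 times that of replicate 1, with a counting 95% interval of -0.54 to -0.44. Its adjusted p was 9.27e-77 in the two-sided exact binomial test of the split of reads with Benjamini-Hochberg adjustment. For Mir191 the log2 ratio was 0.0098, with a counting interval of -0.025 to 0.045 and an adjusted p of 0.745 in the same exact test. With the TMM factors of edgeR the log2 ratio of Mir191 was 0.079 and its adjusted p in the exact test 3.07e-05, and with the size factors of DESeq2 they were 0.063 and 0.00114, so whether it passes depends on the scaling. Passing was common, as 42.6% of the 392 rows and strands tested passed, 20.2% higher and 22.4% lower in replicate 2. Of the 167 that passed, 47.3% were higher in replicate 2, against 64.3% with the TMM factors and 60.7% with the size factors of DESeq2.

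The size of the Mir425 difference was rarer than its passing the test. Among 156 rows and strands with a mean of at least 1000 reads, 75.6% passed, the log2 ratio had an SD of 0.24 and ranged from -0.80 to 0.87, and its median was 0.017. In this set, 9 had a larger log2 ratio in size than Mir425, which is 5.77%, and 5 had a lower one. The log2 ratio of Mir191 was exceeded in size by 148 of the 156. These places, and those below, hold at this scaling. TMM factors raise every log2 ratio by 0.069 and DESeq2's size factors by 0.054, so the order among small log2 ratios changes with them. Of all 392 rows and strands tested, 20.2% were higher and 22.4% were lower in replicate 2. Among the 10 rows read on the opposite strand, 7 were higher and 1 was lower in replicate 2, with log2 ratios from -0.098 to 0.64. Gm24083 and Mir299b were the ones that did not pass. Erythroid markers also differed, Mir451a by -0.57 and Mir144 by 0.87, and their part in the Mir425 difference was not tested.

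MicroRNAs that, like miR-191, serve as references in PCR assays were set beside it. Of 14 listed genes, 13 had a row and all 13 were tested, with 3 higher and 5 lower in replicate 2 and 5 that did not pass. Of all rows and strands tested 20.2% were higher and 22.4% lower, and 75.6% of those with a mean of at least 1000 reads passed in either direction. The higher ones were Mir26b at a log2 ratio of 0.26, Mir186 at 0.22 and Mir361 at 0.13. Among the lower ones were Mir16-1 at -0.35 and Mir484 at -0.18, while Mir25 at 0.092 and Mir24-2 at 0.072 did not pass. Their median log2 ratio was -0.028, against -0.013 over all 392 tested. Every one of the 13 had a log2 ratio larger in size than that of Mir191 at this scaling. Closest to it were Mir93 at 0.017, with 15227 reads in replicate 2 and 12571 in replicate 1, and Mir320 at -0.028, with 2128 and 1812 reads. Mir423 differed most among those with at least 1000 reads, at -0.80, with 9878 reads in replicate 2 and 14341 in replicate 1. Mir16-2 at -0.57, Mir103-2 at -0.59 and Mir103-1 at -0.92 also exceeded Mir425 in size, the last with only 12 reads in replicate 2 and 19 in replicate 1. Mir16-2, Mir103-2 and Mir103-1 are among the 5 of the 13 that hold a run of 20 bases found in another microRNA gene, and Mir423 is not.

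**Figure D5:**
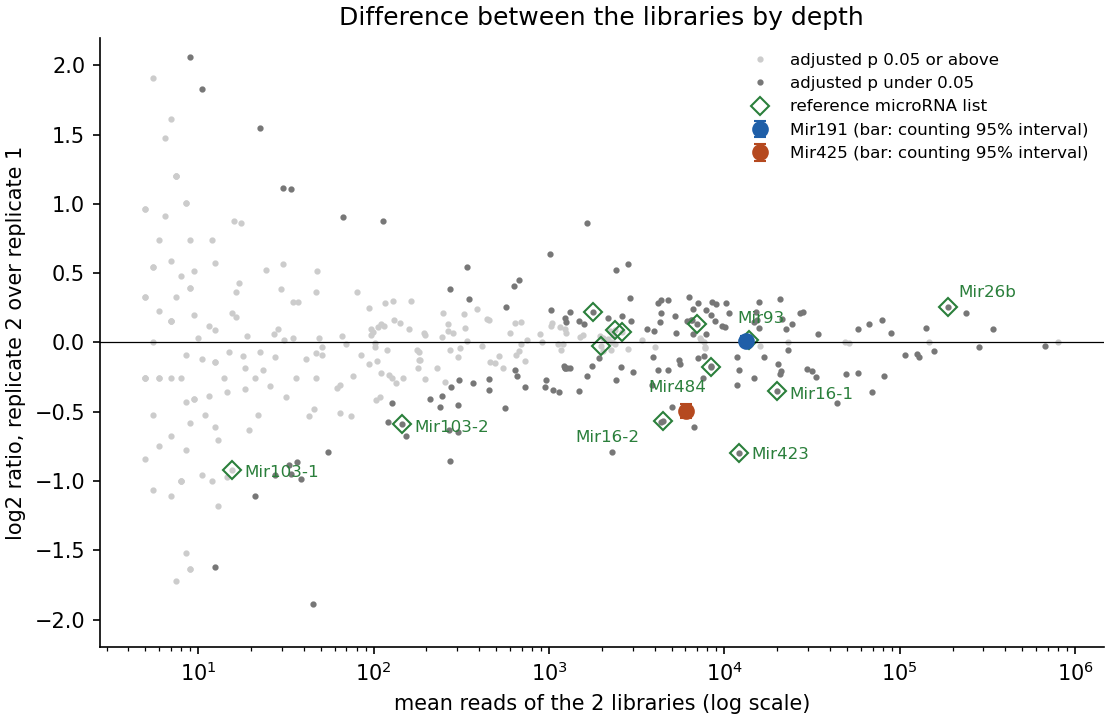
Log2 ratio of replicate 2 to replicate 1 against the mean reads of the libraries on a log axis, for every row and strand tested, with Mir191, Mir425 and the reference microRNA list marked. Of 391 finite values, 5 lie beyond the axis. Mir191 sits on the line at 0 beside Mir93, and Mir425 sits at -0.49 between Mir16-2 at -0.57 and Mir16-1 at -0.35.

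MicroRNAs in introns of other broadly expressed genes were set beside the pair for level and difference. All 17 listed genes had a row, lay inside the listed host in GENCODE M21 and were tested. In replicate 2, 5 were higher, 4 were lower and 8 did not pass, with a median log2 ratio of 0.017. This is 9 of 17 that passed, beside 42.6% of all rows and strands tested. By mean level 5 of them exceeded Mir191 and 9 exceeded Mir425, and their median was 1403 CPM. The highest was Mir26b, of Ctdsp1, at 37674 ± 4704 CPM (SD, n = 2). Mir652, of Tmem164, stood at 4646 ± 13.9 CPM. At this scaling it was the 1 gene of this list whose log2 ratio, 0.0061, was smaller in size than that of Mir191. Mir361, of Chm, at 1403 ± 91.9 CPM, and Mir107, of Pank1, at 1564 ± 32.0 CPM, were the listed genes closest above Mir425 in level. Mir26a-2, of Ctdsp2, at 56.7 ± 1.90 CPM, and Mir26a-1, of Ctdspl, at 19.1 ± 1.42 CPM, were among the lowest. Of the 17, 8 hold a run of 20 bases found in another microRNA gene and can be undercounted.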

How the data were processed

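Small RNA of under 30 bases, per the labels, was sequenced from 2 libraries. The authors deposited whole-number counts per microRNA gene, not normalized, on mm10 with GENCODE M4 per the file descriptions. The sources used here name no aligner or counter. There are 3 count columns, of which the first is always the total of the next ones, and those were taken as own and opposite strand. The 4 rows that name no gene were left out of totals: multiply mapped reads were 36.7% and 34.6% of all reads in replicates 2 and 1, unmapped reads 8.69% and 8.49%, and reads on no feature 2.41% and 2.18%. Symbols and positions came from GENCODE M21 on GRCm38 (1894 of 1973 identifiers matched). M21 holds Mir191; no row of the tables has its identifier.

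Levels were reads per 1000000 of the own-strand total (CPM). Rows and strands with 10 or more reads over both libraries were tested for their split of reads against the library totals by a two-sided exact binomial test (scipy 1.17.1), with Benjamini-Hochberg adjustment at 0.05 over all 392. The test was checked on simulated data. It compares the libraries only, and the quasi-likelihood test of edgeR needs groups and was not run. TMM factors came from edgeR 4.0.16 and size factors from DESeq2 1.42.0. Folding used RNAfold 2.7.2. Named were the members, the genes of the reference and host-gene lists, some of the marker list, genes sharing a seed, the 3 nearest in level, the 5 highest other opposite-strand rows and rows within 100 kb. The members and lists were chosen with earlier results of these data known. Mir24-1 and the brain marker Mir9-1 were not analysed here. Alternatives were other totals, scalings, strand columns and read minimums, and each library alone.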

Additional observations from a re-analysis of the deposited data

Results flagged for a closer look

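Reads outside the own-strand column appeared at loci other than Gm24083. In 9 further rows there were at least 10 opposite-strand reads in each library and at least 10 times as many as on the own strand, above the 3 reads that a count of 0 allows, and GENCODE M21 places a microRNA on that strand in each.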

How the results depend on the processing

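Of 46 alternative values, 37 were counted as kept, by direction, side of the threshold or size within the spread of the libraries. Some could not have moved. With 2 libraries, a level or Mir191 to Mir425 ratio from 1 of them always lies within the SD, and the other strand held 0 reads in both rows. Counts of calls by direction were counted as kept although they shifted. Those higher in replicate 2 went from 79 to 110 with TMM factors and 102 with DESeq2's size factors, those lower from 88 to 61 and 66. The levels moved with the total: per 1000000 of all reads in the library, Mir191 stood at 1423 and Mir425 at 658. Per 1000000 either-strand reads Mir191 stood at 2610 CPM, and without Mir126a in the total at 3169 CPM, moves larger than its small SD. The log2 ratio of Mir191 between libraries, 0.0098, passed the exact binomial test with TMM factors at 0.079 and with DESeq2's size factors at 0.063, which raise every log2 ratio by 0.069 and 0.054. That of Mir425 kept its direction and passed under each of 4 other scalings. With each row read by its larger strand or by both strands, Mir191 ranked 49th and Mir425 83rd. With 1 library left out, the level of Mir191 was 2651 to 2669 CPM, that of Mir425 1019 to 1434 CPM and their log2 ratio 0.89 to 1.39. The rank of Mir191 was then 46 to 47 and that of Mir425 67 to 81, both alternatives added after the data were seen. No paired analysis was possible because there is 1 group. The limits are 2 libraries of 1 donor record, arms counted together, and multiply mapped reads, 34.6% to 36.7% of a library, in no gene row.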
